A study of Mus musculus with 2 samples.

Results

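The genes described here are 9 genes that control plasminogen activation and blood coagulation, namely *Plat*, *Plau*, *Plaur*, *Serpine2*, *F3*, *Tfpi*, *Thbd*, *Procr* and *F13a1*. They were taken by symbol from the 33696 genes of both count matrices, and each had 1 row. The single-cell RNA sequencing covered suprarenal abdominal aortas of male C57BL/6J mice aged 5 months, collected on day 28. Control mice received normal saline, and AngII+HS mice received angiotensin II at 1500 ng/kg/min with 0.9% NaCl and 0.2% KCl in the drinking water, a treatment used to induce abdominal aortic aneurysm. The series describes a library as the pooled aortas of 5 mice, while the protocol in the labels speaks of 1 control mouse and of 2 mice given AngII plus salt. Since each condition was sequenced as 1 library, they could not be tested against each other, and every interval given here is a 95% exact interval that covers counting error only. The treatment cannot be told apart from the animals, the dissociation or the library.

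Plasminogen is cleaved to plasmin, a protease that degrades fibrin and matrix proteins, by tissue plasminogen activator (*Plat*) and by urokinase (*Plau*), which works at the cell surface when bound to its receptor (*Plaur*). Protease nexin-1 (*Serpine2*) is a serpin that inhibits thrombin and both activators. Coagulation starts when tissue factor (*F3*), which is held mainly outside the endothelium of a vessel, binds factor VII, and tissue factor pathway inhibitor (*Tfpi*) blocks that complex. Thrombomodulin (*Thbd*) and the endothelial protein C receptor (*Procr*) turn thrombin towards activation of the anticoagulant protein C. The A chain of factor XIII (*F13a1*) forms the transglutaminase that cross-links fibrin, and it is also made by macrophages.

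After filtering and doublet removal, 10269 Control cells and 19734 AngII+HS cells remained, with 75265697 and 80416904 unique molecular identifiers (UMIs, each marking 1 captured RNA molecule). Over all cells the Control was deeper, with a median of 7265 UMIs against 3069.5 in AngII+HS cells. Within cell types the order varied. The Control and AngII+HS medians were 3189.5 and 5112.5 UMIs in fibroblasts, 4263 and 3983 in VECs and 9933 and 8742.5 in VSMCs. Shares of cells with a UMI are therefore given after cells were thinned to 1000 UMIs, and cells with fewer UMIs were left out of these shares. The 2 barcode lists share 67 barcodes and are recorded crosswise, since each has the length of the matrix of the other library, and cells were read from the matrices by position. Levels are given as CPM, the UMIs of a gene for every 1000000 UMIs of all genes in the same cell type and library. Stromal cells (fibroblasts, vascular smooth muscle cells or VSMCs, and pericytes) were 76.7% of Control cells against 28.6% of AngII+HS cells, and myeloid cells 6.14% against 48.7%. The endothelial classes, vascular (VECs) and lymphatic (LECs), made up 9.48% and 7.0%.

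Every marker of its own list was detected in fibroblasts, VSMCs, pericytes, VECs, LECs, neutrophils and, for the macrophage list, macrophages and monocytes, in both libraries. The lists of the mural cells did not part VSMCs from pericytes by their sums, however. The 5 pericyte markers summed to 2492 and 5336 CPM in the class labelled pericyte, below the 5667 and 6280 CPM in VSMCs, and the 5 VSMC markers to 30096 and 19410 CPM, against 27250 and 37871 CPM. *Rgs5* made up most of that pericyte sum in VSMCs (5367 and 6071 CPM), while *Notch3* (611 and 1168 CPM, against 57.9 and 50.6 CPM) and *Higd1b* (34.0 and 126 CPM, against 0.132 and 1.93 CPM) were higher in the class labelled pericyte. *Abcc9* was 157 and 346 CPM in the class labelled pericyte, against 217 and 133 CPM in VSMCs. *Kcnj8* was 24.1 and 60.3 CPM, against 25.2 and 23.6 CPM. Both were thus higher in the class labelled pericyte in the AngII+HS library alone. The class is therefore called pericyte-like here. It held 168 Control and 221 AngII+HS cells, of which 127 and 120 fell into a subcluster named VSMC when the stromal cells were clustered again, and 41 and 95 into a subcluster named pericyte. Its makeup thus differed between the libraries.

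T and B cells served as a measure of background, since free RNA in droplets adds UMIs of a gene to cells of every kind. Their joint level was at most 12.4 CPM in either library for 7 of the 9 genes. The exceptions were *Serpine2*, at 35.3 and 41.4 CPM, and *Plaur*, for which B cells held 236 and 215 CPM and T cells 31.8 and 32.7 CPM. Wherever 2 values follow each other without labels, the first is the Control and the second the AngII+HS value, and log2 ratios are AngII+HS over Control.

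*Plat*, the tissue plasminogen activator, was highest in LECs, with 581 CPM (539 to 625) in the Control and 410 CPM (366 to 458) in the AngII+HS library. Fibroblasts held 242 CPM (232 to 252) and 317 CPM (310 to 324). In VSMCs the level was 40.7 CPM (39.0 to 42.5) in the Control and 122 CPM (113 to 130) in the AngII+HS library, a log2 ratio of 1.58 (1.46 to 1.70). Pericyte-like cells showed the same order, with 30.5 and 100 CPM and a log2 ratio of 1.72 (1.2 to 2.26). The fibroblast markers summed to 1082 and 2259 CPM and the VEC markers to 733 and 2996 CPM in these cells, and their part in the ratio was not tested. Of these classes the mural cells thus had the largest ratios, while LECs were lower in the AngII+HS library, with a log2 ratio of -0.50 (-0.70 to -0.31). That ratio was -1.42 when the number of doublets removed was doubled and -0.24 when none were.

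The VSMC difference in *Plat* was present in the 4 subclusters that held most VSMCs, which were found by clustering the stromal cells again without the 9 genes. In the 3 of them named VSMC, the Control levels were 41.8, 49.6 and 40.3 CPM and the AngII+HS levels 111, 142 and 130 CPM, in the same order. The unnamed one, led by *Nav2* and *Epha7*, held 1338 Control and 82 AngII+HS VSMCs, with 30.4 and 89.1 CPM. After thinning, 3.87% (3.35 to 4.43) of Control VSMCs and 11.4% (9.09 to 13.9) of AngII+HS VSMCs held a *Plat* UMI, against 0% and 0.984% of T and B cells. Without thinning the shares of VSMCs were 27.8% and 57.6%, at median depths of 9933 and 8742.5 UMIs. The 5 fibroblast markers, all detected in VSMCs, summed to 1574 CPM in Control and 3954 CPM in AngII+HS VSMCs, and their part in the *Plat* ratio was not tested. VECs held 69.8 and 90.5 CPM, and macrophages and B cells did not exceed the T and B cell level of 11.4 CPM.

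*Plau*, the urokinase gene, was highest in macrophages and monocytes. They held 213 CPM (194 to 233) in the Control and 97.1 CPM (92.7 to 102) in the AngII+HS library, a log2 ratio of -1.13 (-1.28 to -0.98). After thinning, 16.1% (12.8 to 19.8) and 8.30% (7.49 to 9.18) of these cells had a *Plau* UMI. The makeup of the class differed, with 41 of 487 Control and 2024 of 4400 AngII+HS cells in a subcluster of Arg1 macrophages. That subcluster held 54.0 CPM of *Plau* in the AngII+HS library. Fibroblasts, with 37.4 CPM (33.6 to 41.4) and 23.0 CPM (21.3 to 24.9), were also lower in the AngII+HS library.

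The order of *Plau* was the opposite in endothelial and pericyte-like cells, at much lower levels. LECs held 11.3 and 33.7 CPM, pericyte-like cells 12.1 and 38.1 CPM, and VECs 4.41 and 12.4 CPM from 19 and 80 UMIs. After thinning, the VECs of the libraries did not stand apart, with a *Plau* UMI in 0.882% and 0.870% of the cells, and the shares of LECs were 0.741% (0.0188 to 4.06) and 1.43% (0.173 to 5.07). Neutrophils had 0 *Plau* UMIs in the 99 Control cells, where 3 UMIs would amount to 11 CPM. The 4647 AngII+HS neutrophils held 42.8 CPM (37.8 to 48.3) from 266 UMIs, against 3.16 CPM in the T and B cells of that library.

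*Plaur*, the urokinase receptor, was highest in neutrophils, with 791 CPM (689 to 904) in the Control and 757 CPM (735 to 779) in the AngII+HS library. The log2 ratio there was -0.06 (-0.26 to 0.14), an interval that includes 0. Macrophages and monocytes held 237 CPM (217 to 259) and 316 CPM (308 to 324), and LECs, dendritic cells and B cells lay between 177 and 242 CPM in both libraries. VECs held 132 CPM (121 to 143) and 165 CPM (155 to 175). The receptor was thus measured in endothelial as well as myeloid cells, while pericyte-like cells had 8.51 and 9.75 CPM, below the T cells.

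In fibroblasts and VSMCs *Plaur* was higher in the AngII+HS library. Fibroblasts held 55.9 and 84.3 CPM, a log2 ratio of 0.59 (0.46 to 0.73), and VSMCs 25.4 and 43.7 CPM, a log2 ratio of 0.78 (0.59 to 0.97). The VSMC levels are close to those of T cells. When the number of doublets removed was doubled, the ratios were only 0.26 in fibroblasts and 0.15 in VSMCs. The fibroblast ratio was 0.81 when no doublets were removed and 0.80 with scaling by trimmed means. The 6 neutrophil markers, all detected, summed to 8.86 and 190 CPM in fibroblasts and to 5.76 and 168 CPM in VSMCs, next to 126697 and 46127 CPM in neutrophils. Their part in these ratios was not tested.

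*Serpine2*, protease nexin-1, was highest in mural cells. VSMCs held 1089 CPM (1080 to 1098) in the Control and 1652 CPM (1621 to 1685) in the AngII+HS library, a log2 ratio of 0.60 (0.57 to 0.63). After thinning, 61.8% (60.4 to 63.1) of Control and 77.9% (74.6 to 80.9) of AngII+HS VSMCs had a *Serpine2* UMI, and before it 99.7% and 98.9%. Pericyte-like cells held 627 CPM (586 to 669) and 726 CPM (677 to 778), in a class whose makeup differed between the libraries. Within the subcluster named pericyte, *Serpine2* was 334 CPM (271 to 408) and 917 CPM (836 to 1003). The log2 ratio there was 1.46 (1.14 to 1.79). The gene was also higher in the AngII+HS library in fibroblasts, with 252 CPM (243 to 263) and 378 CPM (371 to 385), and in LECs, with 246 CPM (219 to 276) and 422 CPM (377 to 470). The fibroblast log2 ratio was 0.58 (0.52 to 0.65), but 0.12 when the number of doublets removed was doubled. It was 0.42 with a stricter cell filter, 0.47 without integration of the libraries and 0.79 with scaling by trimmed means. VECs, at 33.6 and 34.7 CPM, did not exceed the T and B cells, so the endothelial signal above background was that of LECs.

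*F3*, tissue factor, was highest in fibroblasts and was lower there in the AngII+HS library. Fibroblasts held 721 CPM (704 to 738) in the Control and 287 CPM (281 to 293) in the AngII+HS library, a log2 ratio of -1.33 (-1.37 to -1.28). After thinning, 42.1% (40.0 to 44.2) of the Control and 22.7% (21.5 to 24.0) of the AngII+HS fibroblasts had an *F3* UMI, against 0% and 0.984% of T and B cells. Cells with neural markers, the markers of Schwann cells, came next and had the same order, with 444 CPM (386 to 508) and 228 CPM (202 to 256).

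VSMCs held 39.3 CPM (37.7 to 41.0) and 11.6 CPM (9.04 to 14.6) of *F3*, a log2 ratio of -1.77 (-2.13 to -1.43). VECs, at 5.34 and 6.38 CPM, lay at the level of the T and B cells (5.19 and 6.71 CPM), so tissue factor RNA was not detectable above background in them in either library. Neutrophils held 25.8 CPM (10.4 to 53.1) in the Control and 38.5 CPM (33.8 to 43.7) in the AngII+HS library, and macrophages and monocytes 6.45 and 12 CPM.

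*Tfpi*, the inhibitor of the tissue factor complex, was highest in LECs, with 64.0 CPM (50.7 to 79.8) in the Control and 90.6 CPM (70.6 to 114) in the AngII+HS library. VECs held 19.3 CPM (15.3 to 23.9) and 68.3 CPM (62.0 to 75.0), a log2 ratio of 1.83 (1.48 to 2.18) from 83 and 439 UMIs. The thinned shares of VECs with a UMI were 1.51% (0.783 to 2.63) and 4.44% (3.32 to 5.79), against 0.437% and 0.590% of T and B cells. Pericyte-like cells held 22.0 and 53.2 CPM, a log2 ratio of 1.28 (0.63 to 1.95). Fibroblasts held 35.9 CPM (32.3 to 39.9) and 45.9 CPM (43.5 to 48.5). In fibroblasts *Tfpi* was therefore higher in the AngII+HS library and *F3* lower.

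*Thbd*, thrombomodulin, was found in endothelium and in fibroblasts. LECs held 443 CPM (406 to 481) in the Control and 409 CPM (365 to 457) in the AngII+HS library, intervals that overlap. VECs held 258 CPM (243 to 274) and 172 CPM (162 to 183), a log2 ratio of -0.58 (-0.70 to -0.46). Fibroblasts held 358 CPM (347 to 370) and 184 CPM (179 to 189), a log2 ratio of -0.96 (-1.02 to -0.90). The gene was thus lower in the AngII+HS library in VECs and fibroblasts. Macrophages and monocytes as a whole held 82.5 and 40.2 CPM, but their subclusters differed in direction, and the resident-like ones made up 363 of 487 Control and 1004 of 4400 AngII+HS cells. Pericyte-like cells had the opposite order, with 34.7 CPM (25.7 to 45.9) and 197 CPM (172 to 224), a log2 ratio of 2.50 (2.05 to 2.98). Within the subcluster named pericyte the ratio was smaller, at 1.52 (1.04 to 2.04). In pericyte-like cells it was 0.61, short of 2-fold, when the number of doublets removed was doubled.

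*Procr*, the protein C receptor, was highest in pericyte-like cells and LECs. Pericyte-like cells held 164 CPM (143 to 186) in the Control and 884 CPM (830 to 940) in the AngII+HS library, a log2 ratio of 2.43 (2.22 to 2.65). After thinning, 10.1% (6.01 to 15.7) of the Control and 40.3% (33.7 to 47.1) of the AngII+HS pericyte-like cells had a *Procr* UMI, against 0% and 0.443% of T and B cells. LECs held 470 CPM (433 to 510) and 575 CPM (522 to 631), VECs 210 CPM (197 to 224) and 191 CPM (181 to 202), and fibroblasts 150 and 120 CPM. The LEC log2 ratio was 0.29 (0.11 to 0.47), but -1.58 when the number of doublets removed was doubled. The fibroblast log2 ratio was -0.32 (-0.41 to -0.23), but 1.27 without integration of the libraries. By the mean of both libraries pericyte-like cells and LECs were close to each other and above VECs and fibroblasts, although in the Control library alone LECs and VECs were above pericyte-like cells. VSMCs, at 0.809 and 3.53 CPM, did not exceed the T and B cells. Dendritic cells held 27.7 CPM (9.0 to 64.7) in the Control, from 5 UMIs, and 70.2 CPM (60.9 to 80.4) in the AngII+HS library.

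*F13a1*, the factor XIII A chain, was by far highest in macrophages and monocytes. They held 1901 CPM (1843 to 1959) in the Control and 572 CPM (561 to 582) in the AngII+HS library, a log2 ratio of -1.73 (-1.79 to -1.68). An *F13a1* UMI was found in 86.7% and 54.8% of these cells, and after thinning in 67.6% (63.1 to 72.0) and 34.3% (32.8 to 35.7). VSMCs (2.41 and 18.1 CPM), fibroblasts (1.83 and 7.13 CPM) and VECs (1.16 and 4.98 CPM) lay near the T and B cells (5.19 and 12.4 CPM) and are read as background, although their ratios are large. Platelets also carry factor XIII A chain RNA. The 4 platelet markers, of which 2 were at 0 in the Control, summed to 6.45 CPM in Control and 222 CPM in AngII+HS macrophages and monocytes, and their part in the *F13a1* levels was not tested. *Ppbp*, 1 of these markers, is among the leading genes of a subcluster of Arg1 macrophages found at a finer resolution.

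**Figure D1:**
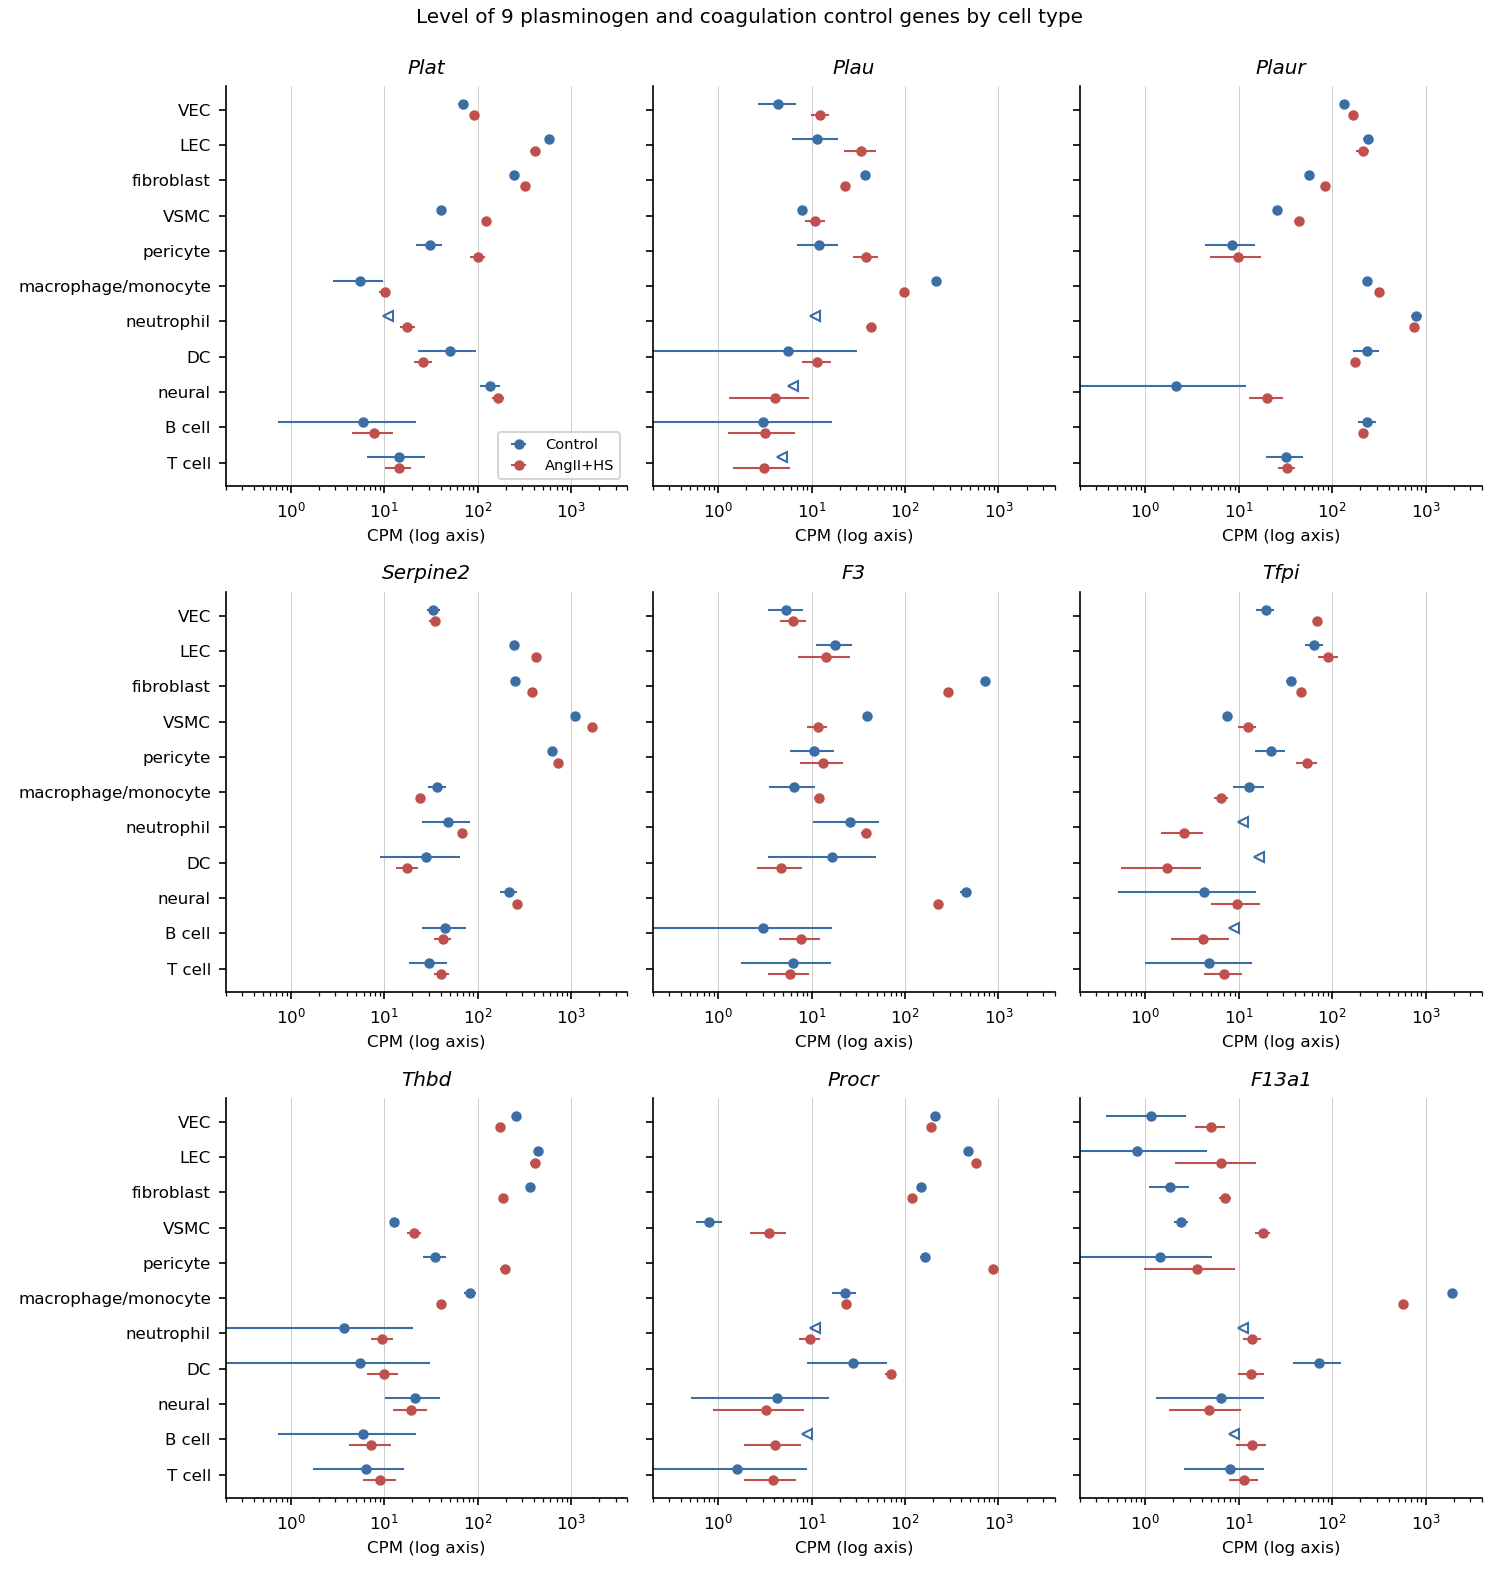
Level of each of the 9 genes (CPM, log axis) by cell type in the Control and AngII+HS library, with 95% Poisson intervals, and open triangles at the level of 3 UMIs where a library had 0. *F13a1* stands far above the other classes in macrophages and monocytes (1901 and 572 CPM), and *Procr* and *Thbd* are higher in AngII+HS than in Control pericyte-like cells (labelled pericyte).

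To set these differences beside those of all genes, a gene was called when its level differed by at least 1 on the log2 scale (2-fold) between the libraries, among genes with at least 20 UMIs over both. In VECs, 3 of the 9 genes were called higher in the AngII+HS library (*Plau*, *Tfpi* and *F13a1*) and 0 lower, next to 8.45% of all genes higher and 5.74% lower. Of these, *F13a1* was at background and *Plau* rested on 19 and 80 UMIs. After thinning, too few *Plau* UMIs were left to decide its difference. In fibroblasts, *F3* was called lower and *F13a1*, at background, higher, next to 8.10% and 7.99% of all genes. In VSMCs, *Plat*, *Procr* and *F13a1* were called higher, the last 2 near background, and *F3* lower, next to 6.27% higher and 12.9% lower of all genes. With a minimum of 100 UMIs in place of 20, the genes called higher were 1 of 6 in VECs (*Tfpi*), next to 5.19% of all genes, and 2 of 8 in VSMCs (*Plat* and *F13a1*), next to 3.23%.

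In macrophages and monocytes, 3 of the 9 genes were called lower (*Plau*, *Thbd* and *F13a1*) and 0 higher, next to 17.1% and 12% of all genes. With TMM scaling, which shifts every ratio in these cells by 0.30, *Plau* stood at -0.83 and *Thbd* at -0.73, and *F13a1* alone of the 3 still passed 2-fold. The median log2 ratio of the 9 genes was -0.63 there and -0.09 over all genes. In neutrophils, 8 of the 9 genes reached 20 UMIs, and 5 were called higher and 0 lower, next to 32.3% and 10.4% of all genes. Of those 5, *Plat*, *Plau*, *Procr* and *F13a1* had 0 UMIs in the 99 Control neutrophils, set to 0.5 UMIs for the call, and *Thbd* had 1. With a minimum of 100 UMIs, 2 of 5 were called higher (*Plat* and *Plau*), next to 24.9% of all genes. In AngII+HS neutrophils, these genes other than *Plau* were at most 17.7 CPM.

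**Figure D2:**
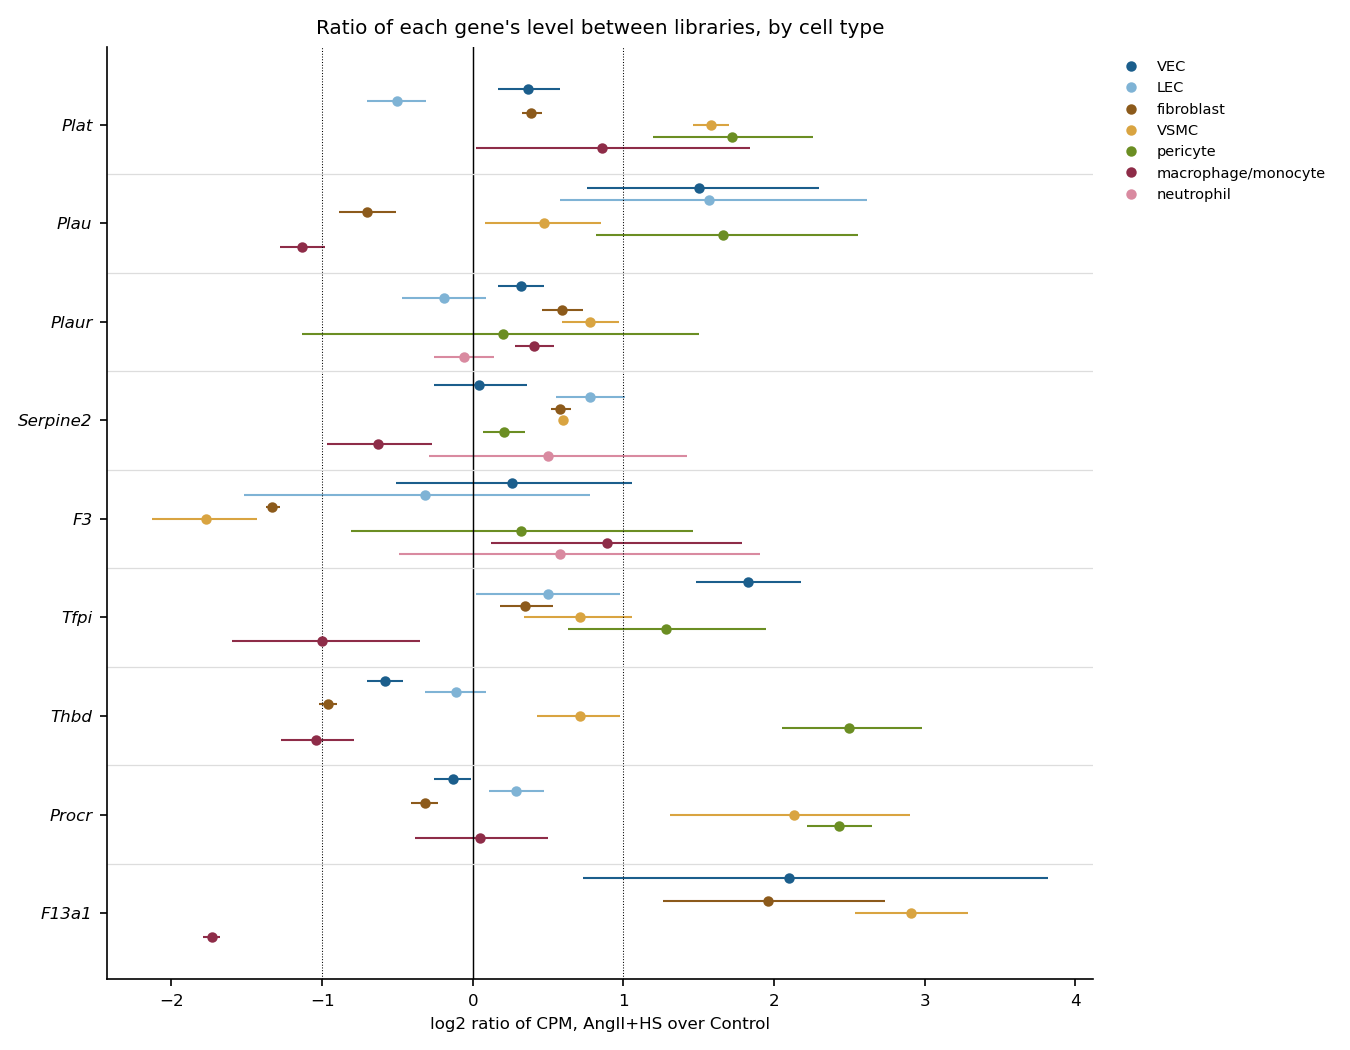
Log2 ratio of CPM, AngII+HS over Control, for each gene in 7 cell types, with 95% exact intervals; dotted lines mark 2-fold, and pairs with 3 or fewer UMIs in a library are left out. *Thbd* and *Procr* reach 2.50 and 2.43 in pericyte-like cells, against 1.52 and 1.83 in the subcluster named pericyte, and *F3* lies below -1 in fibroblasts and VSMCs. With the doublets removed doubled in number, *Thbd* in pericyte-like cells is 0.61 (not drawn).

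Endothelial cells were clustered again without the 9 genes, which separated arterial, capillary, venous and lymphatic cells. Other subclusters stayed unnamed and are not in the levels of these types. They held 68 and 90 cells (venous list highest), 10 and 33 cells (pericyte list highest), and 32 and 0 cells of low depth. *Thbd* was lower in the AngII+HS library in arterial VECs, with 254 CPM (235 to 274) and 107 CPM (94.0 to 122), and in venous VECs, with 324 CPM (281 to 373) and 181 CPM (163 to 200). Capillary VECs held 174 CPM (144 to 209) and 218 CPM (196 to 243). *Procr* was higher in arterial VECs of the AngII+HS library, with 170 CPM (155 to 187) and 279 CPM (258 to 302), and lower in venous VECs, with 555 CPM (498 to 617) and 186 CPM (168 to 206). Over all VECs the levels were 210 and 191 CPM, and the makeup of the class differed as well. The arterial subclusters held 485 and 398 cells, the capillary 143 and 442, and the venous 100 and 268.

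*Tfpi* was higher in venous VECs of the AngII+HS library, with 26.0 CPM (14.8 to 42.1) and 134 CPM (119 to 151), and in capillary VECs, with 13.5 CPM (6.19 to 25.7) and 51.2 CPM (40.5 to 63.8). Arterial VECs held 14.2 CPM (10.0 to 19.6) and 15.2 CPM (10.6 to 21.3), intervals that overlap. *Plat* was 56.4 and 99.1 CPM in arterial and 127 and 84.1 CPM in venous VECs. The Control venous value came from 78 UMIs in 16 of 100 cells. After thinning, 8.08% (3.55 to 15.3) and 7.66% (4.74 to 11.6) of venous VECs had a *Plat* UMI, intervals that overlap.

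Of the subclusters that make up the pericyte-like class, the one named pericyte (41 and 95 cells) held 334 CPM (271 to 408) and 1190 CPM (1098 to 1288) of *Procr*, and 141 CPM (101 to 192) and 406 CPM (353 to 465) of *Thbd*. The other, named VSMC by its markers and led by *Pln*, *Nrarp* and *Nrip2* (150 and 128 cells), held 102 CPM (85.3 to 120) and 532 CPM (477 to 591) of *Procr* but 8.83 and 20.3 CPM of *Thbd*. The log2 ratio of *Procr* was 1.83 (1.52 to 2.16) in the first and 2.39 (2.10 to 2.68) in the second, so the difference was seen in both. A *Thbd* level above 100 CPM was seen in the first alone of these 2.

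The 5 VEC markers summed to 733 CPM in Control pericyte-like cells, with 2 of them at 0, and to 2996 CPM in AngII+HS pericyte-like cells, against 11795 and 15255 CPM in VECs. In the AngII+HS library pericyte-like cells and VECs held 884 and 191 CPM of *Procr* and 197 and 172 CPM of *Thbd*. The part of endothelial RNA in these ratios was not tested.

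Among fibroblasts, *F3* was lower in the AngII+HS library within both large subclusters. The subcluster led by *Lsamp* and *Dio2* (1026 and 1506 cells), which also has *F3* among its 10 leading genes, held 1005 CPM (976 to 1034) and 523 CPM (508 to 539). The subcluster led by *C7* and *Sfrp4* (779 and 1222 cells) held 462 CPM (439 to 485) and 251 CPM (240 to 264). The log2 ratios were -0.94 (-1.0 to -0.88) and -0.88 (-0.98 to -0.78), short of the 2-fold that the class as a whole passed. Pi16 fibroblasts, a type of the adventitia, were low in both libraries, with 87.3 CPM (70.7 to 107) and 56.2 CPM (37.6 to 80.7).

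Subclusters found almost only in the AngII+HS library were low in *F3* as well, and they are part of the class level of that library. Postn fibroblasts (8 and 863 cells) held 87.9 CPM (79.4 to 97.1) in that library, and the subcluster led by *Saa3* and *Mmp13* (1 and 475 cells) held 69.5 CPM (62.9 to 76.6). An unnamed subcluster of low depth (643 and 402 cells), led by *Cst3* and *F3*, held 1081 CPM (1006 to 1160) and 798 CPM (740 to 860), and another (22 and 209 cells) was led by neutrophil genes. Without these unnamed subclusters and those of the same kind elsewhere, the fibroblast log2 ratio of *F3* was -1.38. Postn fibroblasts and the *Saa3*-led subcluster were kept in that value.

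The other genes divided the fibroblasts differently. In Pi16 fibroblasts *Thbd* was 742 CPM (692 to 794) and 647 CPM (580 to 721), *Procr* 450 CPM (411 to 491) and 405 CPM (352 to 464), and *Plau* 78.2 CPM (62.5 to 96.6) and 138 CPM (107 to 174), above both large subclusters in each case. *Plat* was 539 and 684 CPM there, and 487 CPM in the *Saa3*-led subcluster of the AngII+HS library, which also held 152 CPM (142 to 162) of *Plaur*. In Postn fibroblasts of that library *Serpine2* was 512 CPM (491 to 533). In the *C7*-led subcluster *Thbd* was 492 and 241 CPM and *Plat* 355 and 528 CPM.

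The myeloid cells were also clustered again without the 9 genes. In resident-like macrophages (363 and 1004 cells) *F13a1* was 2480 CPM (2400 to 2562) in the Control and 885 CPM (854 to 917) in the AngII+HS library. In Arg1 macrophages (41 and 2024 cells) it was 1071 CPM (962 to 1188) and 866 CPM (847 to 887). Lipid-associated macrophages (61 and 1240 cells) held 333 CPM (272 to 405) and 99.6 CPM (91.9 to 108). The gene was thus lower in the AngII+HS library in these 3 subclusters, with log2 ratios of -1.49, -0.31 and -1.74. The Arg1 ratio (-0.46 to -0.15) is about the size of the 0.30 by which TMM scaling shifts the class. Such scaling was not done for subclusters.

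*Plau* was 257 CPM (231 to 284) and 158 CPM (145 to 172) in resident-like and 252 CPM (199 to 315) and 118 CPM (110 to 127) in lipid-associated macrophages. Arg1 macrophages held 54.0 CPM (49.1 to 59.2) of *Plau* in the AngII+HS library and 2 UMIs in the Control. *Plaur* was 443 CPM (375 to 521) and 383 CPM (370 to 396) in Arg1, 245 CPM (193 to 307) and 312 CPM (298 to 326) in lipid-associated and 185 CPM (164 to 209) and 196 CPM (182 to 211) in resident-like macrophages. The receptor therefore differed less between the libraries than between these subclusters. *Thbd* was 114 CPM (96.9 to 132) and 32.8 CPM (27.1 to 39.4) in resident-like macrophages, a log2 ratio of -1.79 (-2.15 to -1.44). It was 24.1 and 59.7 CPM in Arg1 and 16.3 and 23.5 CPM in lipid-associated macrophages, the Control values from 8 and 5 UMIs, with log2 ratios of 1.31 (0.32 to 2.53) and 0.52 (-0.73 to 2.17).

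**Figure D3:**
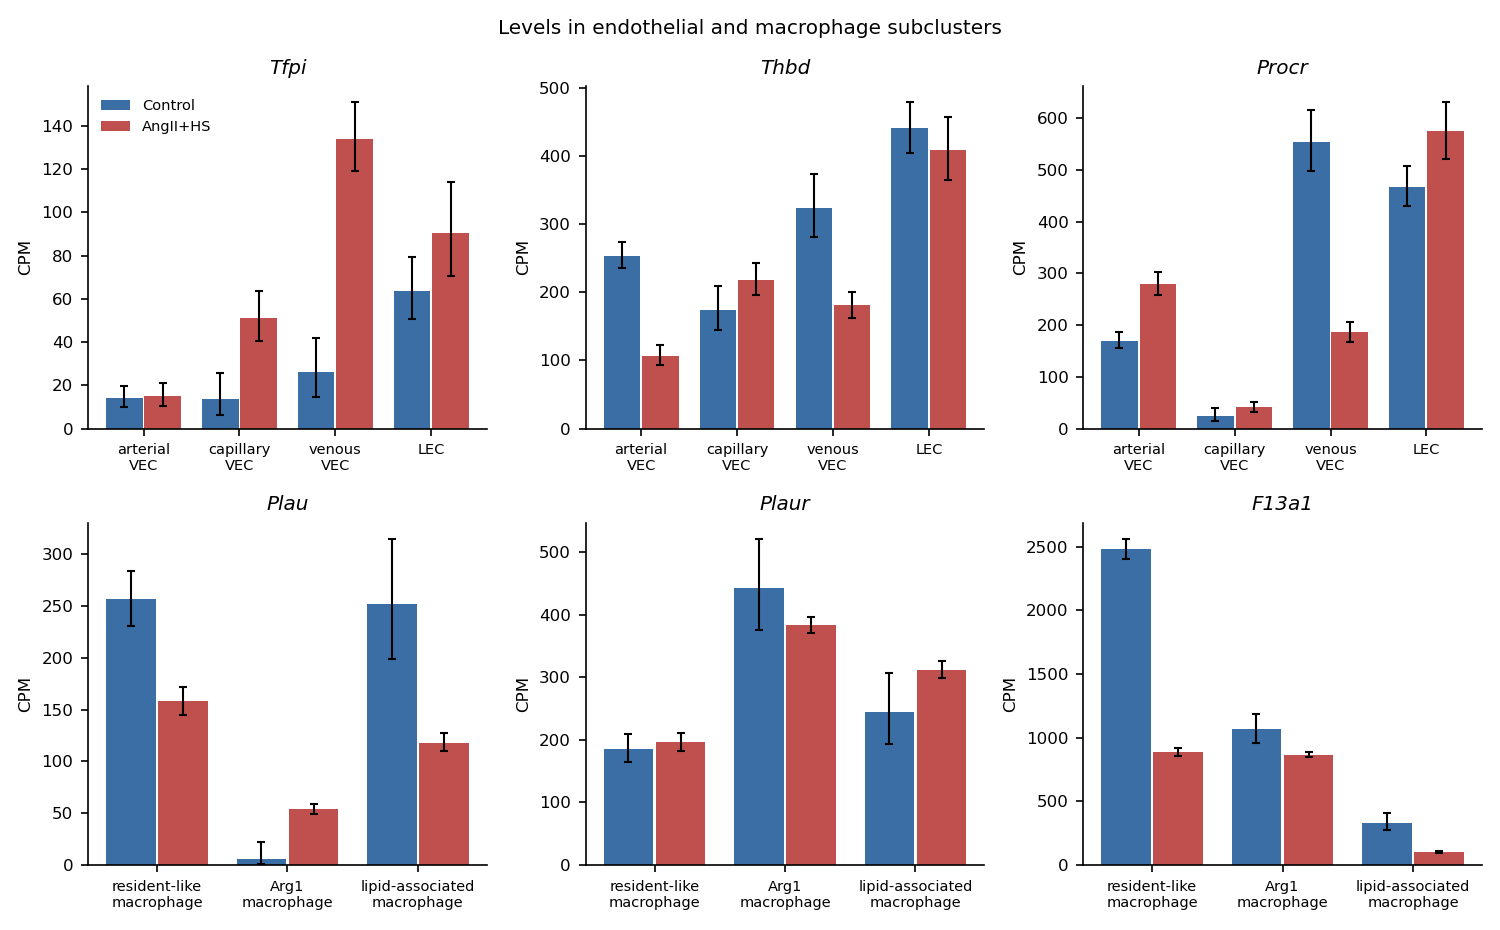
Levels (CPM) of *Tfpi*, *Thbd* and *Procr* in endothelial subclusters and of *Plau*, *Plaur* and *F13a1* in macrophage subclusters of both libraries, with 95% Poisson intervals. *Procr* is higher in arterial and lower in venous VECs of the AngII+HS library, and *F13a1* is lower in the 3 macrophage subclusters, with a log2 ratio of only -0.31 in Arg1 macrophages.

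The cell types that supplied most of a transcript were often not those with its highest level, and the classes differ in size. In the Control library VSMCs held 91.6% (91.4 to 91.8) of all *Serpine2* UMIs, 40.9% of *Tfpi*, 37.6% of *Plat*, 36.7% of *Plaur* and 31.7% of *Plau*. They also held 70.6% of the UMIs of all genes there, and of these shares only that of *Serpine2* was larger. Their *Plaur* level was close to that of T cells. In the AngII+HS library they held 42.4% (41.8 to 43.0) of *Serpine2* and 6.64% of *Plat*, next to 7.75% of all UMIs. Fibroblasts held slightly more of *Serpine2* there, with 43.9% (43.3 to 44.5), against 3.92% in the Control library. Fibroblasts were the main source of *F3*, with 74.2% (73.3 to 75.1) and 89.3% (88.7 to 89.9), and of *Thbd*, with 57.5% and 65.4%. They held 41.3% and 78.3% of *Plat*, 44.6% and 49.5% of *Procr* and 35.9% and 60.6% of *Tfpi*. Of all UMIs they held 13.1% and 35.1%.

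Myeloid cells held 20.9% (19.6 to 22.3) of the *Plaur* UMIs in the Control and 71.2% (70.4 to 71.9) in the AngII+HS library, and 35.1% (32.5 to 37.8) and 70.3% (68.7 to 71.9) of *Plau*. *F13a1* came from myeloid cells in both libraries, with 96.1% and 95.9%. Among the 9 genes the endothelial share was largest for *Procr* in both, with 45.0% (43.3 to 46.7) and 24.4% (23.4 to 25.4). It was 27.1% and 17.9% for *Thbd*, and 16.5% (14.2 to 18.9) and 23.8% (22.0 to 25.7) for *Tfpi*. Stromal cells held more of each, with 52.9% and 64.3% of *Procr*, 69.5% and 69.8% of *Thbd*, and 79.9% and 67.0% of *Tfpi*. Of the UMIs of all genes, myeloid cells held 3.48% and 35.3%, endothelial cells 7.37% and 8.96%, and stromal cells 85.6% and 44.2%.

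**Figure D4:**
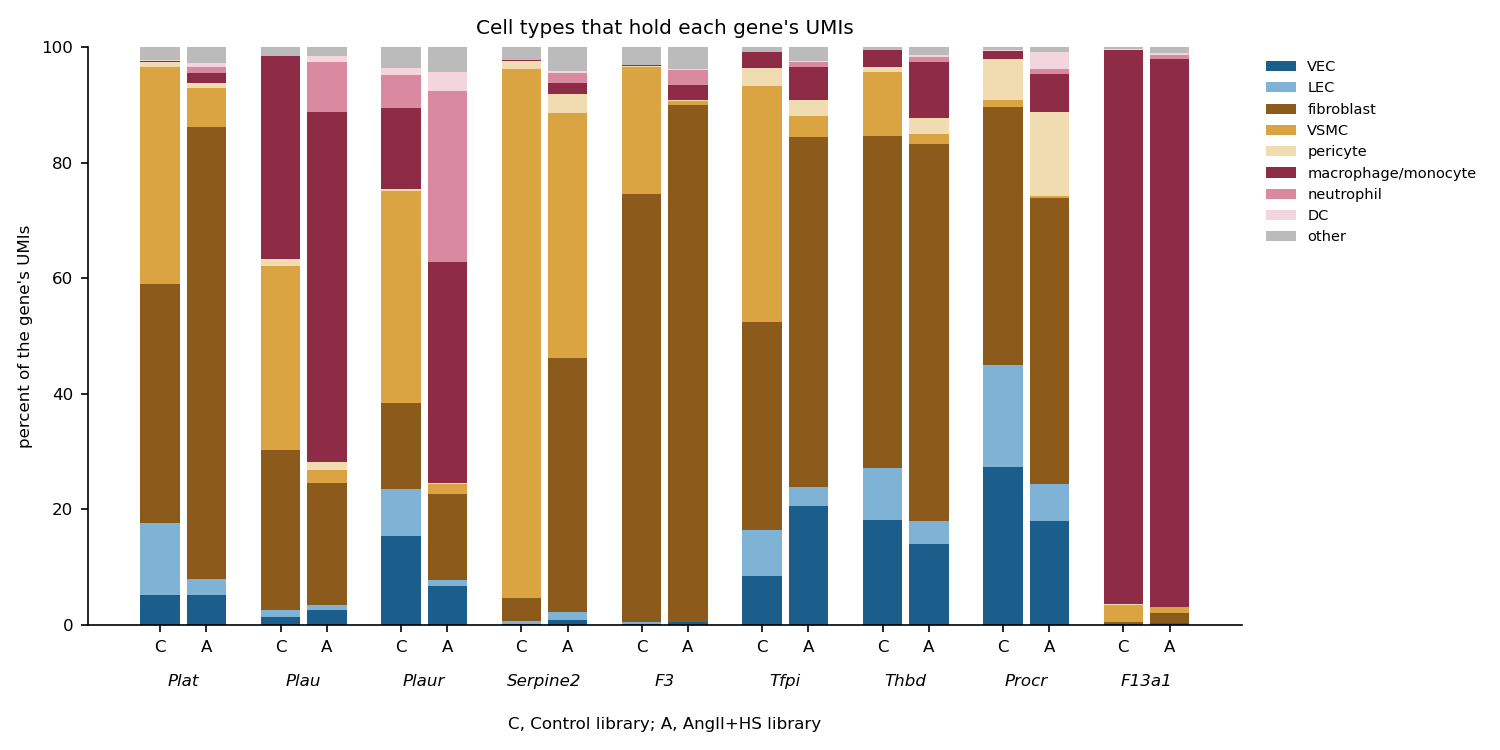
Percent of the UMIs of each gene held by each cell type in the Control (C) and AngII+HS (A) library, as stacked bars. VSMCs hold 91.6% of *Serpine2* UMIs in the Control and 42.4% in the AngII+HS library, where fibroblasts hold 43.9%. Macrophages and monocytes hold most *F13a1* UMIs in both libraries.

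Over whole libraries, *Plaur* was 49.0 CPM in the Control and 197 CPM in the AngII+HS library, a log2 ratio of 2.01 (1.96 to 2.06) and the largest of the 9 genes. *F13a1* was 57.2 and 144 CPM, although its level in macrophages and monocytes was lower in the AngII+HS library. With the Control level of each cell type and the AngII+HS makeup, *F13a1* would have been 458 CPM, and with the AngII+HS levels and the Control makeup 31.3 CPM. *Serpine2* was 840 and 302 CPM, and would have been 1252 CPM with the AngII+HS levels and the Control makeup. *F3* was 127 and 113 CPM, next to 268 CPM when only the makeup and 48.7 CPM when only the levels were exchanged. By this arithmetic, makeup and levels had opposite signs for *Serpine2*, *F3*, *Thbd*, *Plau* and *F13a1*, and the same sign for *Plat*, *Plaur*, *Tfpi* and *Procr*.

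**Figure D5:**
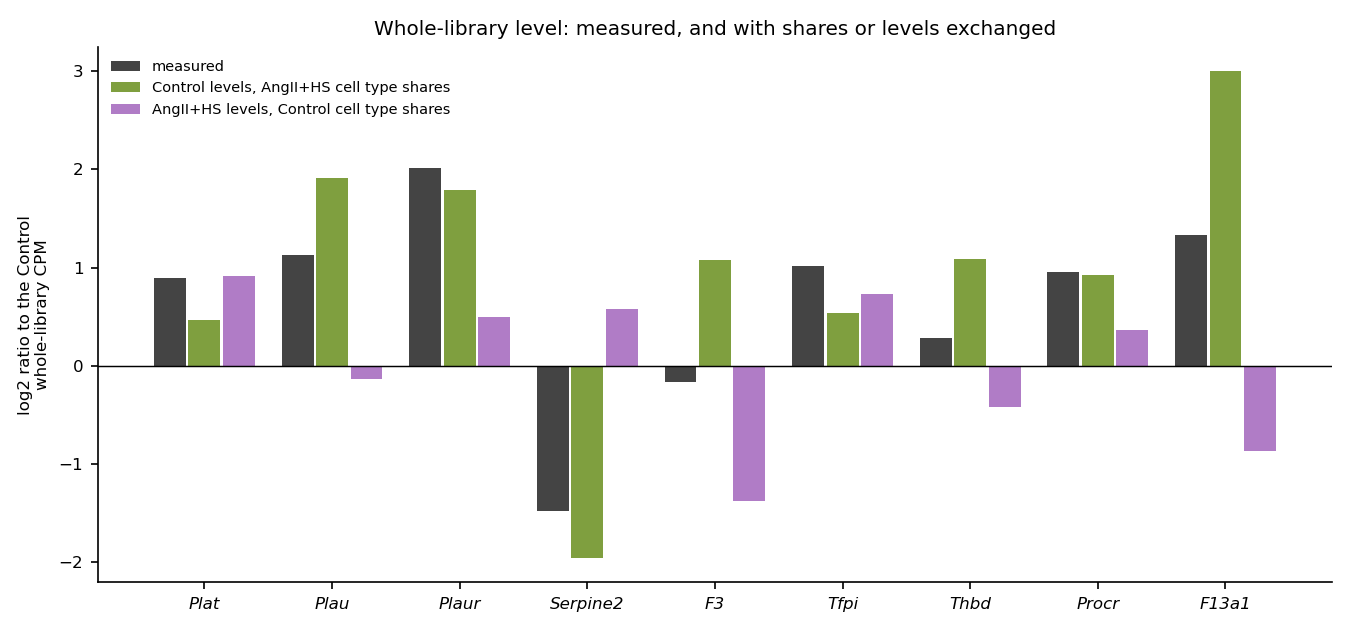
Log2 ratio of whole-library CPM to the Control as measured, with Control levels and the AngII+HS makeup of cell types (shares only), and with AngII+HS levels and the Control makeup (levels only). For *F13a1* the measured value is 1.33, with 3.0 from shares only and -0.87 from levels only.

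Other genes of these pathways were counted by the same call from 3 lists. The shares of all genes called higher and lower, beside which the counts stand, were 12% and 17.1% in macrophages and monocytes, 32.3% and 10.4% in neutrophils, 8.45% and 5.74% in VECs, 7.99% and 8.10% in fibroblasts, and 6.27% and 12.9% in VSMCs. Of 11 genes of the plasminogen system, 9 reached 20 UMIs in macrophages and monocytes, and 4 were higher and 2 lower in the AngII+HS library, with a median log2 ratio of 0.95. The makeup of that class differed between the libraries, and genes of the 3 lists were not split by subcluster. *Lrp1*, an endocytic receptor that clears complexes of proteases and inhibitors, was 204 and 481 CPM, and *Plgrkt*, a plasminogen receptor, 25.8 and 74.5 CPM. *Serpinb2*, an inhibitor of urokinase, was 5.53 and 53.0 CPM. It was also the 1 higher gene of this list in fibroblasts, with 0 UMIs in the Control, where 3 would give 0.305 CPM, and 46.3 CPM from 1306 UMIs in the AngII+HS library. In VECs and in VSMCs, 6 genes of the list were counted each, and 0 passed the call in either direction.

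Of 17 clotting factors and receptors, 6 were counted in macrophages and monocytes, and 2 were higher and 0 lower. *F7*, the ligand of tissue factor, was 5.07 and 26.7 CPM, and *Tgm2*, tissue transglutaminase, 48.8 and 491 CPM, a log2 ratio of 3.33 (3.05 to 3.62). In this class, whose makeup differed between the libraries, the order of *Tgm2* was opposite to that of *F13a1*, the other transglutaminase gene described here. In VECs, 8 were counted and 2 were lower, among them *F2rl1*, a protease-activated receptor, with 43.4 and 13.7 CPM. In neutrophils, 4 of 6 were higher and 2 lower, with *F10* at 69.9 and 316 CPM. Of these, *F2r* and *F7* had 0 UMIs in the Control neutrophils and *Vwf*, called lower, had 4. In fibroblasts, 2 of 7 were higher, *F5* and *F10*, at no more than 5.39 CPM, and in VSMCs 2 of 6 were lower.

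The list of 12 anticoagulant genes also holds relatives and regulators of anticoagulants, among them *Gas6*, *Klf2* and *Klf4*. Of the 12, 7 were counted in macrophages and monocytes, with a median log2 ratio of -1.48. There 5 were lower, *Gas6*, *Klf2* and *Klf4* among them, and 0 higher, next to 17.1% lower and 12% higher among all genes. *Pros1*, protein S, the cofactor of activated protein C, was 114 and 29.9 CPM, and *Gas6*, which is related to protein S, 369 and 118 CPM. *Klf2* and *Klf4*, transcription factors known to induce *Thbd* in endothelium, were 483 and 172 CPM and 712 and 254 CPM in these cells. In VECs, 8 were counted, 2 lower (*Klf2* and *Gas6*) and 1 higher (*Tfpi2*). There *Klf2* was 1885 and 884 CPM, a log2 ratio of -1.09 (-1.14 to -1.04), *Gas6* 281 and 132 CPM, and *Tfpi2*, a relative of *Tfpi*, 3.71 and 13.7 CPM. In VSMCs, 1 was lower, *Klf4*, with 846 and 395 CPM, and 1 higher, *Hs3st1*, at 1.66 and 3.69 CPM.

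The genes whose levels ran most like each of the 9 were found by correlating log2(CPM + 5) over 25 sums of a cell type in a library, among 8391 genes. These points share libraries and free RNA, so the values are descriptions. *Thbd* and *Tfpi* were each among the 3 nearest genes of the other (Pearson r = 0.91), and *Thbd* was among the 3 nearest of *Procr* (r = 0.86). *F13a1* was nearest to *Slc7a8* and *C3ar1* (both r = 0.90), *Serpine2* to *Ltbp1* (r = 0.94) and *Postn* (r = 0.93), and *F3* to *Entpd2* (r = 0.92). *Plat* was nearest to *Kctd17* and *Plpp1* (both r = 0.91), *Plau* to *Ccl7* (r = 0.84) and *Plaur* to *St3gal1* (r = 0.87). Among pairs of the 9 genes the lowest value was that of *Plaur* and *Serpine2* (r = -0.44).

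Promoter sequences are shown for the 3 genes that passed 2-fold in the cell type of their highest level and had an entry in the RefSeq promoter table (build GRCm38.p6), which matched 6 of the 9 genes. Each is the 250 bases before an annotated start, 5′ to 3′ on the strand of the gene, and capitals mark matches on either strand to the CACCC box, the AP-1 motif TGANTCA, the GC box GGGCGG, the PU.1 core GAGGAA or the CArG box, which may overlap.
*F3*, chr3:121723287-121723536, plus strand: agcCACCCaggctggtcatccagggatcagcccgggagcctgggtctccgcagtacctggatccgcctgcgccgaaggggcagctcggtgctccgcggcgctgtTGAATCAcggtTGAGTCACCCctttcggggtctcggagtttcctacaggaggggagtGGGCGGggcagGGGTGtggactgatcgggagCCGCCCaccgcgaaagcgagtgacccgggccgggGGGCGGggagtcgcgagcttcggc
*Procr*, chr2:155750967-155751216, plus strand: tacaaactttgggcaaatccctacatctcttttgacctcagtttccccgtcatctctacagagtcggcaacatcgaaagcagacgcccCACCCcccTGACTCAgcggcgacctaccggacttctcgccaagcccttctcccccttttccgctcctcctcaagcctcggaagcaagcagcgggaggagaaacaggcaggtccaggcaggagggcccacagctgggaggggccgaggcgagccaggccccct
*F13a1*, first start, chr13:37050245-37050494, minus strand: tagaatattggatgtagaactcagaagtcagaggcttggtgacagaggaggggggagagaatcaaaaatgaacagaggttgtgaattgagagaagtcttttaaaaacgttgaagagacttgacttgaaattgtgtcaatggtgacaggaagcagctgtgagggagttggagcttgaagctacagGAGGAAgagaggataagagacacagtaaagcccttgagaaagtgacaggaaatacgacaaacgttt
*F13a1*, second start, chr13:37049214-37049463, minus strand: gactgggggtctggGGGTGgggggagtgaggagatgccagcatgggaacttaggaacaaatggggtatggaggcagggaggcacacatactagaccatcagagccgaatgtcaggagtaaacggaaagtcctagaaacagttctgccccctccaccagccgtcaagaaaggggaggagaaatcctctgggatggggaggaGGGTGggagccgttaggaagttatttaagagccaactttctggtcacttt

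The *F3* window held 2 matches to the AP-1 motif, which 6.75% of all 32851 windows hold, with 3 matches each to the CACCC box and the GC box, which 52.0% and 32.7% of windows hold. The *Procr* window held 1 match to the AP-1 motif and 1 to the CACCC box. The first *F13a1* window held 1 match to the PU.1 core, found in 23.3% of windows, and the second 2 matches to the CACCC box. The bases after the first *F13a1* start lay near the beginning of 1 of 5 GENCODE transcripts of the gene. For the second start this was 0 of 5. The CArG box, found in 1.47% of windows, had 0 matches in these 4. A match describes these letters and does not show that a factor binds.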

How the data were processed

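Cells of suprarenal abdominal aortas were profiled with 10x Genomics chemistry, 1 pooled library per condition. The authors made the deposited counts, whole UMI counts per gene and barcode, with Cell Ranger, version 8.0.1 per the file headers. The submitters' processing notes name mm10, and the methods of the study GRCm39. Genes were matched by symbol, and no coordinates of the files were used.

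Barcodes with at least 500 UMIs, 200 genes and under 20% mitochondrial UMIs were kept. Doublets were removed with Scrublet (scanpy 1.11.5) at 0.8% per 1000 barcodes, which took 1019 Control and 4826 AngII+HS barcodes. The libraries were integrated and clustered with Seurat 5.3.0 (R 4.3.3, resolution 0.8), and the endothelial, stromal and myeloid cells were clustered again without the 9 genes (20 components, resolution 0.4). Clusters were named from marker lists by a rule settled after the clusters were seen. The 9 genes and the lists were chosen with earlier results of these data known. The gene lists of the pathways are described by counts, and by name for genes past 2-fold with at least 100 UMIs, and some genes are not reported here.

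For each cell type, UMIs were added up within a library. Intervals are exact Poisson (levels), conditional binomial (ratios) or Clopper-Pearson (shares), at 95%, computed with scipy 1.17.1, and cover counting error only. A level of 3 UMIs is the limit that a count of 0 allows. With 1 library per condition no p-value was computed. The ratio calculation was tested on simulated counts with planted changes and Poisson error only. These counts hold no variation between cells, animals or libraries, so they check the arithmetic alone. Alternatives covered doublet removal, cell filters, integration, resolution, scaling by trimmed means (TMM, edgeR 4.0.16, used for scaling factors only), thinning and subtraction of the T and B cell level. Of the 9 genes, 5 overlap an annotated gene on the opposite strand and 0 one on the same strand.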

Additional observations from a re-analysis of the deposited data

Results flagged for a closer look

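The differences named here are opposite in sign between cell types. None was tested, since each condition was 1 library. *Plau* had a log2 ratio of -1.13 in macrophages and monocytes but 1.57 in LECs, 1.5 in VECs and 1.66 in pericyte-like cells, where its levels were far lower. The makeup of macrophages and monocytes differed between the libraries. Within them the *Plau* ratio was -0.70 in resident-like and -1.09 in lipid-associated macrophages. It was 3.16 (1.30 to 6.21) in Arg1 macrophages, from 2 Control UMIs. With cells thinned to 1000 UMIs the VEC ratio was -0.02, and the shares of LECs with a UMI were 0.741% (0.0188 to 4.06) and 1.43% (0.173 to 5.07), intervals that overlap. Thinning left too few *Plau* UMIs in VECs and LECs to decide these differences. *Thbd* had a log2 ratio of 2.50 in pericyte-like cells and -1.04 in macrophages and monocytes. The makeup of both classes differed between the libraries. The ratio was 1.52 in the subcluster named pericyte, and -1.79 in resident-like, 1.31 in Arg1 and 0.52 in lipid-associated macrophages. With the doublets removed doubled in number, the ratio of pericyte-like cells was 0.61. Within VECs, *Thbd* stood at 0.32 in capillary, -1.24 in arterial and -0.84 in venous cells. *Procr* stood at 0.72 in arterial and -1.57 in venous VECs.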

How the results depend on the processing

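The log2 ratio of each gene in the cell type of its highest level was recomputed under 11 alternatives. It kept its sign in all 11 for every gene except *Plaur* in neutrophils, which is near 0 and kept it in 9. For these 9 pairs of a gene and a cell type, the values that moved by more than their counting interval follow. Values of other pairs are added where the main ratio passed 2-fold and changed sign. Without doublet removal, the ratio was -0.24 for *Plat*, -1.28 for *Plau*, -1.63 for *F3*, -0.41 for *Thbd*, 2.15 for *Procr* and -1.89 for *F13a1*. With the doublets removed doubled in number, it was -1.42 for *Plat* in LECs, past 2-fold, -1.03 for *F3* and -1.53 for *F13a1*, and *F13a1* in pericyte-like cells turned to -0.24. With TMM scaling, it was -0.83 for *Plau*, no longer past 2-fold, -1.13 for *F3* and -1.43 for *F13a1*. With cells thinned to 1000 UMIs, it was 0.21 for *Plaur*, 0.80 for *Serpine2*, -1.26 for *F3* and -1.63 for *F13a1*, while *Plau* in VECs turned to -0.02 and *F13a1* in pericyte-like cells to -0.40. For *F3* in fibroblasts the ratio was also -1.28 with a stricter cell filter, -1.79 without integration, -1.41 at resolution 1.2 and -1.38 without the doubted subclusters, an alternative chosen after seeing the data. Of the other values, those that moved numbered 28 with the doublets removed doubled, 27 without doublet removal, 19 with thinning, 9 with TMM scaling, 9 without integration, 6 with the T and B cell level subtracted, 6 with finer subclusters, 4 with all deposited barcodes, 3 at resolution 1.2, 2 with the stricter cell filter, 1 without the doubted subclusters and 0 at resolution 0.4 or in clustering without the 9 genes. Among them, *Plau* in LECs was 0.36 and *Thbd* in pericyte-like cells 0.61 with the doublets removed doubled. *Plaur* was then 0.26 in fibroblasts and 0.15 in VSMCs, and *Serpine2* in fibroblasts 0.12. Some pairs short of 2-fold in the main run changed sign. *Procr* in LECs went from 0.29 to -1.58 with the doublets removed doubled, and in fibroblasts from -0.32 to 1.27 without integration. Without doublet removal, *Procr* in VECs went from -0.13 to 0.09 and *F3* in LECs from -0.32 to 1.39. A minimum of 100 UMIs moved 7 of 10 shares of all genes called. The cause of these moves was not tested. No paired analysis was possible because each condition was 1 library. The number of cells limits the Control neutrophils, dendritic cells and Arg1 macrophages, of which there were 99, 45 and 41 cells.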
